A study of Mus musculus with 6 samples.

Results

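The genes described here encode the proteasome, the barrel-shaped protease that degrades ubiquitin-tagged proteins, together with the factors that assemble and activate it. They were taken from a RefSeq gene table as every symbol starting Psma, Psmb, Psmc, Psmd, Psme or Psmg followed by a number, which gave 56 symbols. Of these, 49 had a probe on the arrays, matched through the probe's RefSeq accession, out of 20018 genes with a probe in all. The 7 others were 6 pseudogenes and Psme2b, a copy of Psme2. The names Psmc3ip and Psme3ip1 belong to interacting proteins that are not proteasome subunits, and both are shown apart, which left 47 proteasome genes with a probe. Of these, 45 passed the filter on dim probes and were tested among 13587 genes. All 45 were well above background on all 6 arrays, so none entered the test through 1 group alone. The remaining ones were Psmb11, the catalytic subunit of the thymus proteasome, whose probe was above background on no array, and Psma8, an alternative alpha subunit of the testis, whose probe was above background on 1 PVBL array and on no sham array.

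RNA came from the livers of male C57BL/6J mice, measured on single-colour Agilent arrays. The PVBL group consisted of 3 samples of the right liver lobe taken 3 days after the left branch of the portal vein had been tied, and are labelled as regenerating liver. The sham group consisted of 3 samples of right lobe taken 3 days after a sham operation. The labels number the samples and do not state that each came from its own animal, so a p-value here speaks of sample-to-sample spread that may in part be technical, and the number of arrays limits the precision. The PVBL arrays all lay in row 2 of the slide and the sham arrays in row 1, so slide row and operation cannot be told apart. In both rows, replicates 1 to 3 lay in columns 1 to 3.

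Between 48.1% and 53.7% of the 55681 probes were well above background on an array, and no spot was saturated. Levels are log2 intensities relative to the 75th percentile of the array, and a difference is the PVBL mean minus the sham mean of these levels. The 7 hepatocyte markers checked (Alb, Ttr, Apoa1, Hnf4a, Cps1, Tat and Cyp2e1) were above background on all arrays. Whole lobes were measured, so fewer cells of a type and less RNA per cell cannot be told apart in any value below.

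The proteasome consists of a 20S core, in which rings of alpha subunits close off a chamber lined by beta subunits, and a 19S regulatory particle on its end. In the core, 3 kinds of beta subunit carry the proteolytic sites. The 19S particle has a base with a ring of ATPases that unfolds substrates and a lid that removes their ubiquitin chains. In cells exposed to interferon the catalytic subunits are replaced by immune forms, and other activators can take the place of the 19S particle. Protein breakdown by the proteasome drives the cell cycle by removing cyclins and CDK inhibitors, and the subunit genes are known to be induced together by the factor NRF1 when proteasome capacity is short.

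The comparison asked how these transcripts differed in regenerating right lobe from sham-operated liver. Of the 45 proteasome genes, 1 passed the adjusted p threshold of 0.05, against 32.9% of all genes tested (limma, Benjamini-Hochberg over 13587 genes). That gene was Psmd8, a lid subunit of the 19S particle, which was 1.68-fold higher in PVBL. No proteasome gene passed in the downward direction, against 17.8% of all genes, and for upward calls the share of all genes was 15.1%. At an unadjusted p of 0.05, 4 of the 45 passed (Psmd8, Psmd5, Psmd14 and Psmc6), against 45.4% of all genes. In 7 of the 45 genes the 3 PVBL values and the 3 sham values did not overlap, 3 higher (Psmd8, Psmd14, Psmd5) and 4 lower (Psmb8, Psmb9, Psmc6, Psmg4), against 51.5% of all genes. Separated groups were higher in PVBL for 22.3% of all genes and lower for 29.1%.

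The absence of a call does not show equal levels, and the intervals give the sizes that the data allow. The 95% interval of the difference lay within 2-fold in both directions for 43 of the 45 genes, against 66.8% of all genes tested, and within 1.5-fold for 30 of the 45, against 28.8%. The exceptions at 2-fold were Psmd8, whose interval reached just past a log2 difference of 1.00, and Psme3, whose interval ran from -1.12 to 0.12. The median SE was 0.15 over the proteasome genes and 0.16 over all genes. Fitted differences ran from -0.50 (Psme3) to 0.75 (Psmd8), with a median of -0.03, beside a range of -5.00 to 8.09 and a median of -0.10 over all genes. A difference smaller than 0.5 in size was seen in 42 of 45 genes, against 64.0% of all genes. With spike-in scaling both medians were higher, 0.40 over the proteasome genes and 0.33 over all genes. The plot of intervals by role shows how closely the subunits lay around 0.

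**Figure D1:**
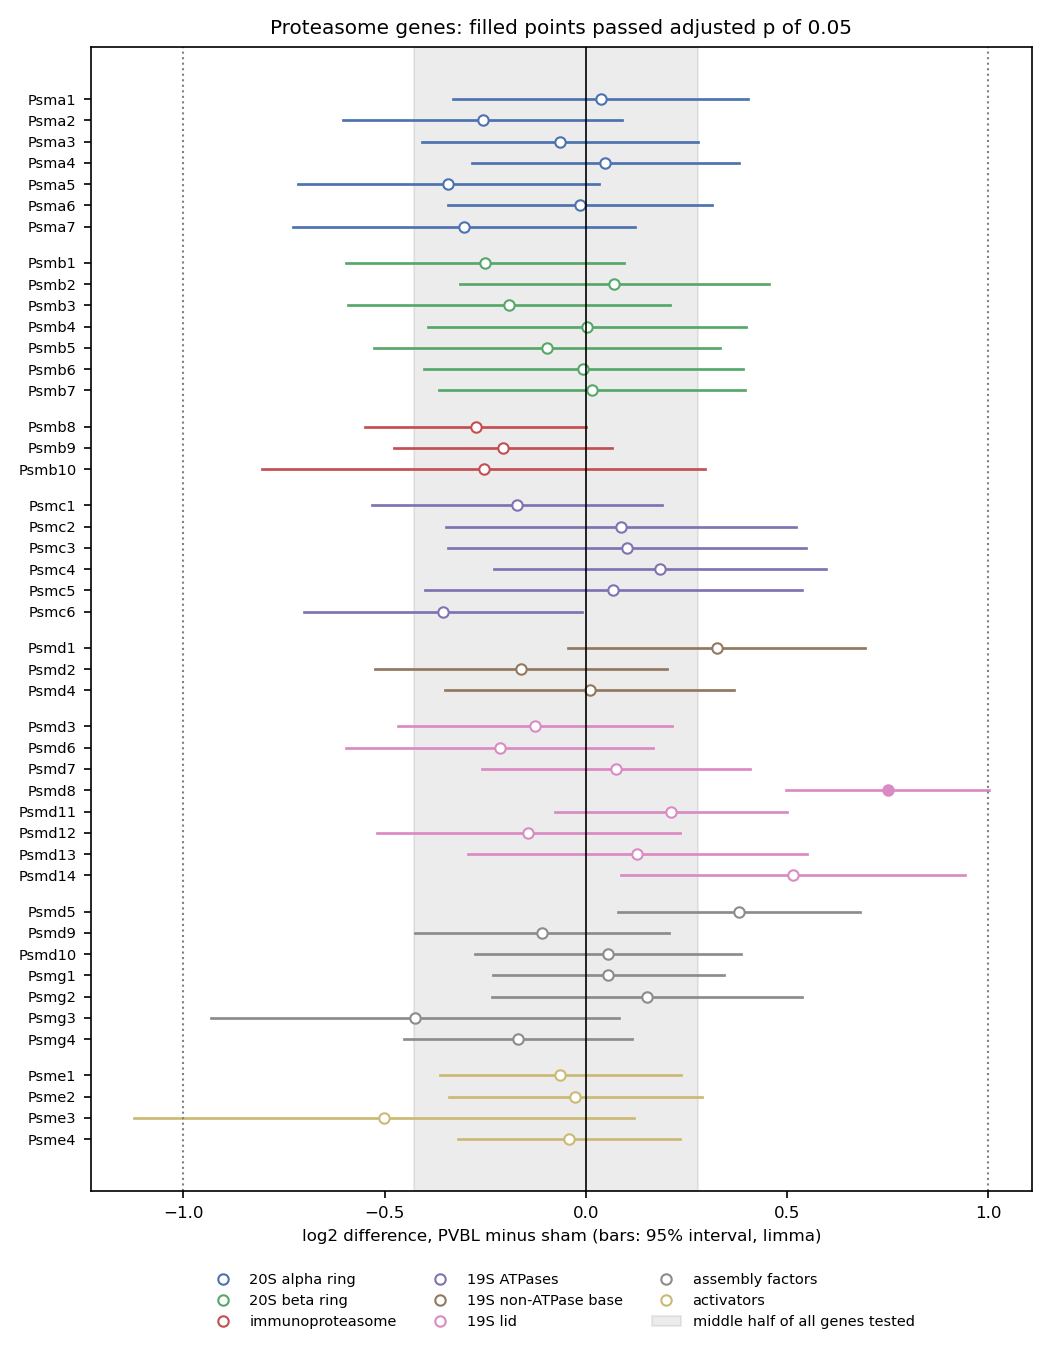
Log2 difference between PVBL and sham liver for the 45 tested proteasome genes, grouped by role, with 95% intervals from limma (n = 3 arrays per group). Dotted lines mark a 2-fold difference and the grey band holds the middle part of all genes tested, from -0.43 to 0.28. Psmd8 carries the only filled point.

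**Figure D2:**
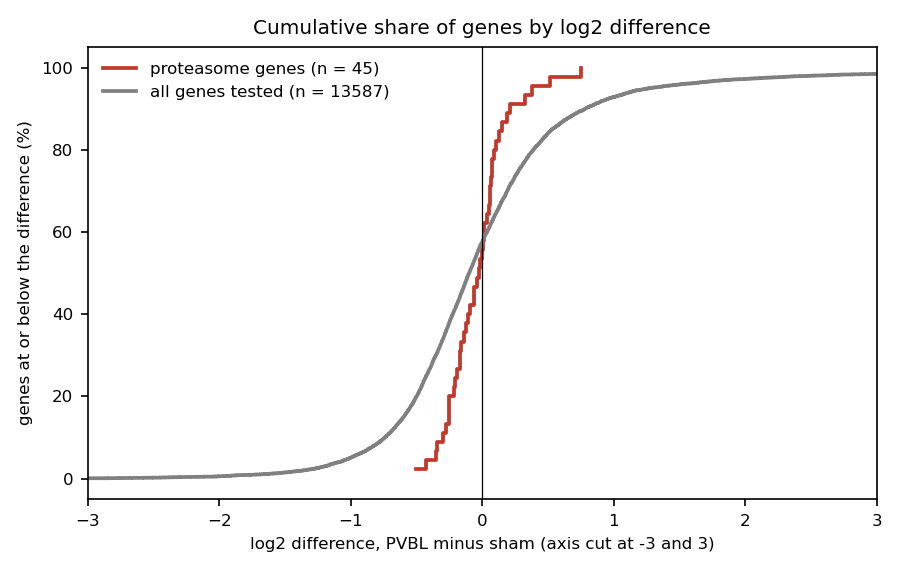
Cumulative share of genes (y, in percent) against the log2 difference, PVBL minus sham (x), for 45 proteasome genes in red and 13587 genes in grey. The red curve climbs between -0.50 and 0.75, while the grey curve has tails beyond the axis on both sides.

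Psmd8 is a lid subunit whose yeast counterpart, Rpn12, is the last to join the lid. It had tight values in both groups. Its log2 levels were 5.22, 5.14 and 5.14 in PVBL 1 to 3, against 4.39, 4.43 and 4.43 in sham 1 to 3. The lowest PVBL array was thus well above the highest sham array. The log2 difference was 0.75 ± 0.11 (SE, n = 3 per group, adjusted p = 0.00298), and the gene was called under all 22 alternative settings tried, with log2 differences from 0.65 to 1.18 and adjusted p from 0.000352 to 0.0286. It rests on 1 probe.

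The start region of Psmd8 is shown because it belongs to the called gene, beside those of Psmb5 and Psmb6, genes of catalytic subunits that were not called and whose windows hold a match to the antioxidant response element, the motif read by NRF1 and NRF2. The sequences are RefSeq's, from build GRCm38.p6, each 300 bases with 250 before and 50 after the annotated start, read in the direction of the gene. They lie at chr7:29180624-29180923 on the minus strand, chr14:54617946-54618245 on the minus strand and chr11:70525107-70525406 on the plus strand. Capitals mark TGACNNNGC.
Psmd8: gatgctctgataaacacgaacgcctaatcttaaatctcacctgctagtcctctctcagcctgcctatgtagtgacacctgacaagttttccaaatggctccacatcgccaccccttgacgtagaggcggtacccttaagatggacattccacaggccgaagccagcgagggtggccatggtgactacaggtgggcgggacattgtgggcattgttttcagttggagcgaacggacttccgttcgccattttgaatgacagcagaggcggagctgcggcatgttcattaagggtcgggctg
Psmb5: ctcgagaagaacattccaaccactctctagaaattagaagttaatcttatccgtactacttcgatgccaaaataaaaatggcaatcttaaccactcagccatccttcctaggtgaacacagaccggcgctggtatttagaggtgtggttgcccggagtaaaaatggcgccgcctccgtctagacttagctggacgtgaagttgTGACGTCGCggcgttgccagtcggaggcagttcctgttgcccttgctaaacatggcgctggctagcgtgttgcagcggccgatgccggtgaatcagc
Psmb6: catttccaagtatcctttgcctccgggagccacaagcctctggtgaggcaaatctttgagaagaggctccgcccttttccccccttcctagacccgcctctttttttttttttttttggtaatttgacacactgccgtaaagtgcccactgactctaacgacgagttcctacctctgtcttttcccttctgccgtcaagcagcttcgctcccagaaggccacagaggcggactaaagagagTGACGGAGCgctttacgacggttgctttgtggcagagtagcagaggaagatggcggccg

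In all, 5 motifs were searched, and all 5 are given. The antioxidant response element, searched as TGACNNNGC, occurred in 12.4% of 32851 promoter windows in the table and in 6 of the 41 windows (14.6%) found for 38 of the tested proteasome genes. The windows with a match were those of Psmb5, Psmb6, Psmc6, Psmd12, Psmd9 and Psme4, whose log2 differences ran from -0.35 to -0.01, none of them past the threshold. In Psmb5 the match TGACGTCGC began 47 bases before the start and in Psmb6 the match TGACGGAGC began 9 bases before it. The Psmd8 window held none. The interferon-stimulated response element, a repeat of GAAA that interferon-activated factors read, was present in 3.44% of all windows and in 5 of the 41 (12.2%), those of Psmb3, Psmd4, Psmd9, Psme1 and Psmg4. None of these 5 genes passed the threshold. The ETS motif CCGGAAGT occurred in 3.89% of all windows and in 10 of the 41 (24.4%), which belong to 9 genes, Psma6, Psmc1, Psmc2, Psmd12, Psmd13, Psmd6, Psme3, Psme4 and Psmg3, whose log2 differences ran from -0.50 to 0.13. The CCAAT box was present in 37.4% of all windows and in 13 of the 41 (31.7%). The palindromic core motif of nuclear respiratory factor 1 was present in 0.971% of all windows and in 2 of the 41 (4.88%), those of Psma2 and Psmg1. All motifs were searched on both strands, and their matches may overlap. A match describes letters and does not show binding.

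Apart from Psmd8, the lid subunits lay on both sides of 0. The 8 lid genes had a median log2 difference of 0.10, from -0.21 (Psmd6) to 0.75 (Psmd8). The second highest was Psmd14, the metalloprotease that cuts ubiquitin chains off arriving substrates, named after its values were seen. Its log2 levels were 2.27, 2.65 and 2.14 in PVBL 1 to 3, against 1.95, 1.59 and 1.97 in sham 1 to 3. Every PVBL array was above every sham array, though the spread within each group was wider than that of Psmd8. The difference was 0.51 ± 0.18 (SE, adjusted p = 0.0668) and missed the threshold. It was past the threshold under 7 of 21 alternative settings.

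The base of the 19S particle holds 6 ATPases and the scaffold and receptor subunits Psmd1, Psmd2 and Psmd4. The ATPase genes had a median of 0.08 and ran from -0.35 (Psmc6) to 0.18 (Psmc4), and none passed the threshold. Psmc5 lay nearest to 0 among them, with log2 levels of 4.75, 5.04 and 4.30 in PVBL 1 to 3, against 4.75, 4.58 and 4.55 in sham 1 to 3. Its sham values lay inside the PVBL range, and the difference was 0.07 ± 0.20 (SE). Psmc6, named after its values were seen, had levels of 3.47, 3.72 and 3.53 in PVBL, against 3.92, 3.73 and 4.12 in sham. The highest PVBL value and the lowest sham value almost met, and the difference of -0.35 ± 0.15 (SE) missed the threshold (adjusted p = 0.104). It was past the threshold under 1 of 21 alternative settings, a scale set on the proteasome genes themselves. Psmd4, a receptor for ubiquitin chains, had 6.31, 6.57 and 6.12 in PVBL, against 6.41, 6.20 and 6.36 in sham, a difference of 0.01 ± 0.15 (SE), and the groups overlapped.

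In the 20S core none of 14 genes was called. The 7 alpha ring genes, which form the gated outer rings, had a median log2 difference of -0.06, from -0.34 (Psma5) to 0.05 (Psma4). Psma6 lay nearest to 0, with 4.66, 4.94 and 4.53 in PVBL 1 to 3, against 4.69, 4.71 and 4.78 in sham 1 to 3. The sham values again fell inside the PVBL range. The 7 constitutive beta ring genes had a median of -0.01, from -0.25 (Psmb1) to 0.07 (Psmb2), and Psmb4, a structural beta subunit, lay nearest to 0. Its levels were 7.24, 7.64 and 7.07 in PVBL, against 7.35, 7.24 and 7.36 in sham, a difference of 0.0032 ± 0.17 (SE).

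The catalytic beta subunits are encoded by Psmb5 (chymotrypsin-like site), Psmb6 (caspase-like site) and Psmb7 (trypsin-like site). Psmb5 had log2 levels of 7.81, 8.29 and 8.06 in PVBL 1 to 3, against 8.10, 7.92 and 8.41 in sham 1 to 3, a difference of -0.10 ± 0.18 (SE). Psmb6 had 7.57, 7.95 and 7.46 in PVBL, against 7.71, 7.49 and 7.81 in sham, a difference of -0.01 ± 0.17 (SE). Psmb7 had 4.96, 5.06 and 4.53 in PVBL, against 4.86, 4.84 and 4.81 in sham, a difference of 0.02 ± 0.16 (SE). The groups overlapped for all of them, adjusted p was 0.705, 0.981 and 0.948 in this order, and every interval lay between -0.53 and 0.40.

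The immune catalytic subunits stand in for these: Psmb8 for Psmb5, Psmb9 for Psmb6 and Psmb10 for Psmb7. In the gene table Psmb8 lies between Tap1 and Tap2, and Psmb9 lies beside Tap1, the peptide transporter genes of the MHC region. Psmb8 had log2 levels of 3.52, 3.44 and 3.63 in PVBL 1 to 3, against 3.77, 3.88 and 3.75 in sham 1 to 3. All PVBL arrays were below all sham arrays, and the difference of -0.27 ± 0.12 (SE, 95% interval from -0.55 to 0.0015) did not pass the threshold (adjusted p = 0.111). It was called lower under 2 of 21 alternative settings, array weights (adjusted p = 0.0401) and the median of the tested probes as the scale (adjusted p = 0.0429). Psmb9 had 3.88, 4.02 and 3.87 in PVBL, against 4.05, 4.18 and 4.15 in sham. Its PVBL and sham arrays did not overlap either, and its difference was -0.21 ± 0.11 (SE, adjusted p = 0.204). Psmb10 had 5.63, 5.90 and 5.23 in PVBL, against 5.98, 6.10 and 5.45 in sham, with overlapping groups and a difference of -0.25 ± 0.23 (SE, adjusted p = 0.428). With spike-in scaling all 3 values were above 0 (0.15, 0.22 and 0.17).

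Because a ratio within an array does not depend on the factor that scales it, each immune subunit was also set against its constitutive counterpart on the same array. The log2 ratio, PVBL minus sham, differed by -0.18 for Psmb8 to Psmb5, by -0.20 for Psmb9 to Psmb6 and by -0.27 for Psmb10 to Psmb7. The SD between arrays was 0.30, 0.19 and 0.24 for these ratios, in this order. In the exact permutation test (two-sided, 3 pairs, n = 3 arrays per group), p was 0.5, 0.4 and 0.4, and 0.5 for each after Benjamini-Hochberg adjustment. The smallest p this design allows is 0.1. Over 18 alternative settings each, the values ran from -0.40 to 0.05 for Psmb8 to Psmb5, from -0.38 to -0.08 for Psmb9 to Psmb6 and from -0.45 to -0.14 for Psmb10 to Psmb7. The value above 0 came with PVBL 1 as the only PVBL array.

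**Figure D3:**
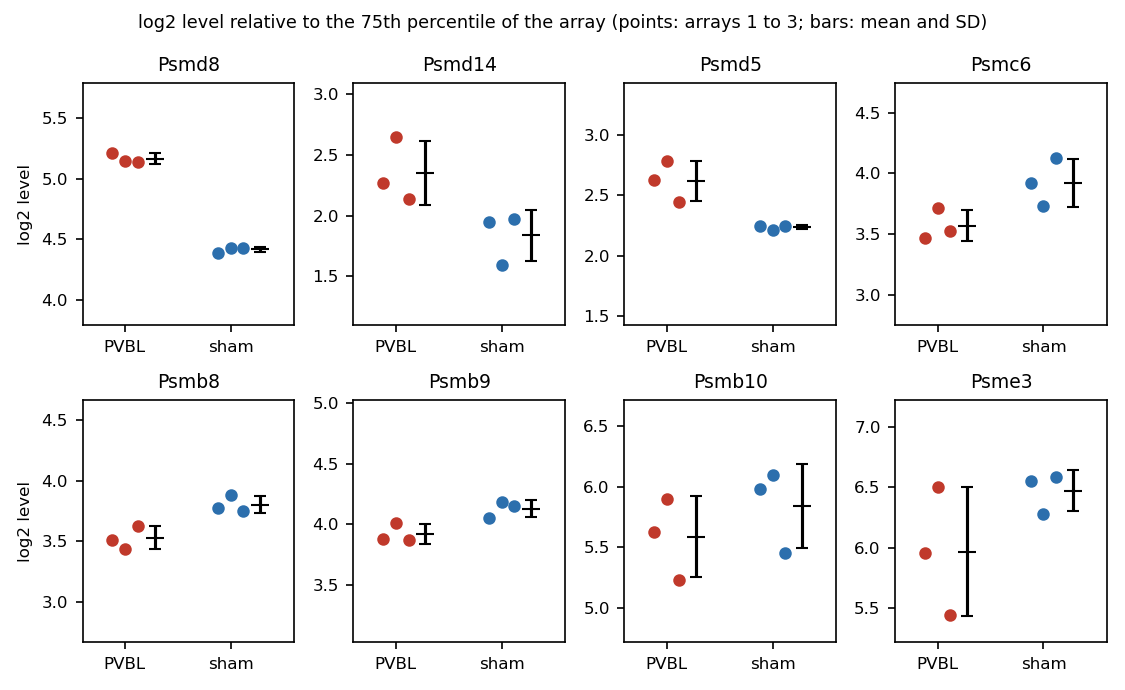
Log2 level relative to the 75th percentile of the array for 8 proteasome genes, with 3 PVBL arrays (red) left of 3 sham arrays (blue) and bars for mean and SD. Psmd14, Psmd5 and Psmc6 were chosen after their values were seen. Each panel spans 2 log2 units. Psmd8 shows 2 tight groups (5.14 to 5.22 in PVBL and 4.39 to 4.43 in sham), while Psme3 and Psmb10 spread widely.

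Marker levels of other cell types differed between the same arrays. The counts of called markers below stand beside 15.1% of all genes called higher and 17.8% called lower. Of the 8 lymphocyte markers, whose median was -0.37, Cd3d was called lower (-0.99 ± 0.19, SE, adjusted p = 0.00869), and their summed level was 8.94 to 10.7 times the 75th percentile signal on PVBL arrays and 12.2 to 13.5 times on sham arrays. Cd8a was above background on no PVBL array and on all sham arrays, so that it entered the test through sham alone. Its call is not counted here, though the median and the summed level include it. The 6 tested markers of Kupffer cells and macrophages summed to 111 to 280 in PVBL and 143 to 162 in sham, with a median log2 difference of -0.43. Marco was called higher (2.52 ± 0.38, SE, adjusted p = 0.00373), while the 5 others lay between -0.57 and -0.11 and were not called. Ptprc, carried by all leukocytes, had a log2 difference of -0.23 (adjusted p = 0.583). None of 4 neutrophil and monocyte markers was called, the brightest being Itgam at -0.25 and S100a9 at 0.42. Of 7 hepatocyte markers 1 was called lower, Cyp2e1 at -1.07, in 14 of 22 alternative settings, with -0.64 under spike-in scaling. Relative to the 75th percentile all 7 lay below 0, with a median of -0.38. Their place against 0 depends on the scale, since the median over all genes was -0.10 here and 0.33 with spike-in scaling. On the 75th percentile scale the 7 markers summed to 2520 to 3680 in PVBL and 4110 to 4610 in sham. Of 5 endothelial markers Clec4g was called lower (-1.49). The 5 had a median of -0.66 and summed to 43.1 to 62.5 in PVBL and 98.3 to 104 in sham. Of 5 stellate markers, whose median was -0.11, Lrat was called lower (-1.23) and Col1a1 higher (2.21). Of 3 tested bile duct markers Krt19 and Krt7 were called higher (1.52 and 1.44). Krt7 was above background on 2 of 3 sham arrays, and with normexp background it was at 0.37 and not called (adjusted p = 0.0509). The part of these cells in the values of Psmb8, Psmb9 and Psmb10 was not tested.

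Among 11 tested genes of the interferon response 3 fell and none rose, against 17.8% of all genes called lower, with a median log2 difference of -0.35. They include Ifit3 and Ifit1, which block viral RNA, at -0.87 ± 0.21 and -0.82 ± 0.15 (SE, adjusted p = 0.0213 and 0.00839). The call of Ifit3 held under 15 of 21 alternative settings and that of Ifit1 under 21 of 22. Of 10 genes of MHC class I peptide loading 1 fell, against the same 17.8% of all genes. It was H2-K1, a class I heavy chain gene whose probe may meet related H2 genes (-0.43 ± 0.11, SE, adjusted p = 0.0276, called under 10 of 22 alternative settings). Tap1 and Tap2, the neighbours of Psmb8, were at 0.03 ± 0.14 and -0.07 ± 0.13 (SE) and did not pass, both named after their values were seen.

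The activators that can replace the 19S particle were not called. Psme1 and Psme2 encode the interferon-induced PA28 ring. Psme1 had log2 levels of 5.81, 6.00 and 5.68 in PVBL 1 to 3, against 5.89, 5.92 and 5.87 in sham 1 to 3, a difference of -0.06 ± 0.13 (SE). Psme2 had 6.98, 7.29 and 7.02 in PVBL, against 7.12, 7.03 and 7.22 in sham, a difference of -0.03 ± 0.13 (SE), and its probes may also meet the copy Psme2b. Both pairs of groups overlapped. Psme3, the nuclear PA28 gamma activator, had 5.95, 6.50 and 5.44 in PVBL, against 6.55, 6.27 and 6.58 in sham. PVBL 2 lay among the sham values and PVBL 3 more than 1 log2 unit below PVBL 2, and the difference was -0.50 ± 0.26 (SE, adjusted p = 0.179). Without PVBL replicate 2 it was -0.77 and called (adjusted p = 0.0367), and without PVBL replicate 3 it was -0.24. Psme4, the PA200 activator of histone breakdown, had 1.74, 1.58 and 1.64 in PVBL, against 1.78, 1.61 and 1.70 in sham, a difference of -0.04 ± 0.12 (SE).

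The 7 assembly factors, chaperones that build the particle and leave it, ran from -0.42 (Psmg3) to 0.38 (Psmd5), with a median of 0.06 and no call. Psmd5, a chaperone of the base, named after its values were seen, had log2 levels of 2.63, 2.78 and 2.45 in PVBL 1 to 3, against 2.25, 2.22 and 2.25 in sham 1 to 3. All PVBL arrays were above all sham arrays, and the difference of 0.38 ± 0.13 (SE, adjusted p = 0.0575) missed the threshold but passed it under 8 of 22 alternative settings. Psmd10 (gankyrin, a chaperone of the base also known as an oncoprotein of liver) lay nearest to 0. Its levels were 1.47, 1.86 and 1.62 in PVBL, against 1.54, 1.55 and 1.69 in sham, a difference of 0.06 ± 0.14 (SE), with overlapping groups. Psmg3, an alpha ring chaperone, named after its values were seen, had levels of 2.70, 3.51 and 2.95 in PVBL, against 3.46, 3.38 and 3.60 in sham, a difference of -0.42 ± 0.21 (SE, adjusted p = 0.166). PVBL 2 lay among the sham values. It was called lower under 3 of 21 alternative settings, without PVBL replicate 2, without PVBL replicates 2 and 3, and with array weights.

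Several probes were tested for 11 of the 45 genes, and in 9 of these the probes had the same sign. The widest gap between probes of 1 gene was 0.37 (Psmd12, at -0.14 and 0.23). Tested among all probes, 1 of the 56 probes of proteasome genes was called, that of Psmd8. The share of all probes called in that fit was not recorded, so this count has no background beside it.

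The subunits moved together between arrays of the same group. PVBL 2 was the highest PVBL array in 42 of the 45 genes, against 41.5% of all genes, and PVBL 3 was the lowest in 35, against 48.1%. The median deviation from the group mean over the proteasome genes was -0.03, 0.24 and -0.18 on PVBL 1 to 3 and 0.02, -0.09 and 0.05 on sham 1 to 3. The same medians over all genes were 0.01, 0.04 and -0.06 on the PVBL arrays and 0.02, -0.01 and -0.0042 on the sham arrays. Without PVBL replicate 2 the median difference of the proteasome genes was -0.15, and 1 of them was called higher and 2 lower (Psme3 and Psmg3). Of all genes, 28.8% were called under that setting. Without both PVBL replicates 2 and 3, a setting added later, the median over the proteasome genes was -0.09.

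**Figure D4:**
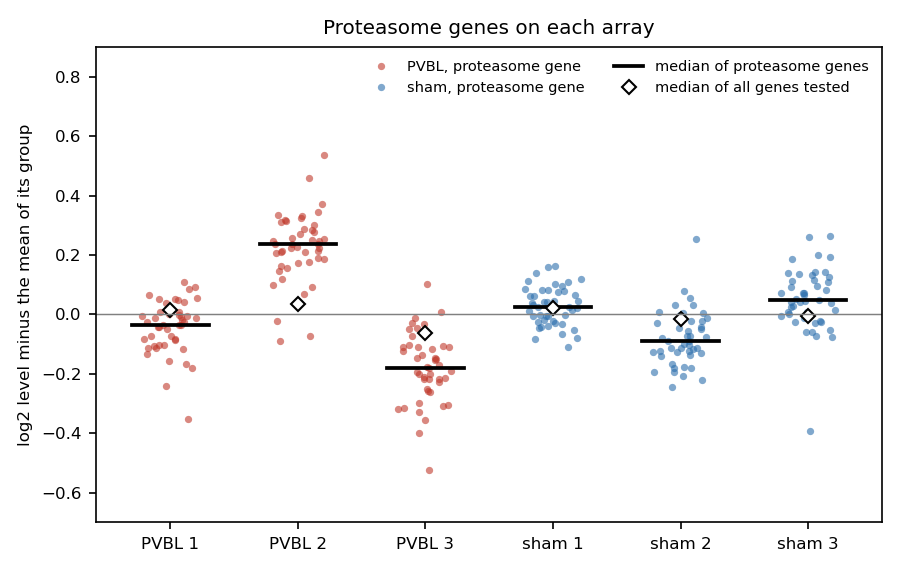
Log2 level minus the mean of the gene's own group (y) for 45 proteasome genes on each array (x), PVBL in red and sham in blue, with black lines for their median and diamonds for the median of all genes. The red points of PVBL 2 lie mostly above 0 (median 0.24) and those of PVBL 3 mostly below (median -0.18).

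Each gene was therefore also measured relative to the median of the 45 proteasome genes on its array, a scale chosen with the values already seen. The median SE was then 0.12 in place of 0.15. This scale takes out the shift that the 45 genes share on an array, so a lower SE was built in. Calls gained on it are no separate support. On this scale 34.2% of all genes were called. Among the 45, 2 were higher in PVBL, Psmd8 (0.69 ± 0.12, SE, adjusted p = 0.00755) and Psmd14 (0.45 ± 0.13, SE, adjusted p = 0.0419), and 2 were lower, Psmc6 (-0.42 ± 0.12, SE, adjusted p = 0.0353) and Psma5 (-0.40 ± 0.12, SE, adjusted p = 0.0392). The other 41 were not called. Psmd8 and Psmd14 are lid subunits, Psmc6 is an ATPase of the base and Psma5 an alpha ring subunit.

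Partners of the proteasome that do not carry these names were also examined. Of 12 such genes 11 were tested and none was called, with a median of -0.09, against 32.9% of all genes. At an unadjusted p of 0.05, 2 of them passed. The brightest were Sem1, a small lid subunit, at -0.21 ± 0.13 (SE, adjusted p = 0.240), and Pomp, the chaperone that completes the core, at -0.14 ± 0.13 (SE, adjusted p = 0.449). In values of the authors' deposited table, refitted here, Pomp had the other sign (0.30, adjusted p = 0.0256). That fit called 97.5% of all genes in the table, so a call there is no separate support. Pomp has 2 probes, which differed in sign, and with the mean over probes it was at 0.09 and not called.

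Of 12 tested genes of ubiquitin and its activation 1 rose and 3 fell, a share near the 32.9% called among all genes, with a median of -0.04. Uba6, a ubiquitin-activating enzyme, rose by 0.68 ± 0.21 (SE, adjusted p = 0.0442), while the conjugating enzyme genes Ube2n and Ube2d3 were at -0.53 ± 0.13 and -0.50 ± 0.12 (SE, adjusted p = 0.0233 and 0.0176). The calls of Uba6, Ube2n and Ube2d3 held under 10, 13 and 16 of 22 alternative settings. Ube2n and Ube2d3 have 2 probes each. With the mean over probes they were at 0.0012 and -0.23 and not called (adjusted p = 0.995 and 0.136). The probes of Ube2n thus differed in sign. Of 8 tested ubiquitin receptors and shuttles, which carry tagged proteins to the proteasome, 2 rose and 1 fell, beside the same 32.9%, with a median of 0.21. Zfand2b was at -0.87 ± 0.14 (SE, adjusted p = 0.00458), Ubqln1 at 0.65 ± 0.15 (SE, adjusted p = 0.0171) and Zfand2a at 0.50 ± 0.13 (SE, adjusted p = 0.0268). Their calls held under 21 of 22, 16 of 21 and 13 of 22 alternative settings, in this order.

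The factor NRF1, encoded by Nfe2l1, is freed from the endoplasmic reticulum by the p97 machinery before it acts on subunit genes. Nfe2l1, named for this role, was at -0.17 ± 0.12 (SE, adjusted p = 0.315). Of the 11 genes in the list of p97 and NRF1 processing, 1 rose and 1 fell, against 32.9% of all genes called. The first was Nfe2l2, which encodes NRF2, at 0.50 ± 0.15 (SE, adjusted p = 0.0438, called under 9 of 21 alternative settings), and the second Derl2, a channel of protein export from the endoplasmic reticulum, at -0.58 ± 0.13 (SE, adjusted p = 0.0153). The median was -0.17.

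In the same arrays 5 of 7 tested NRF2 target genes rose and none fell, against 15.1% of all genes called higher, with a median of 1.07. Nqo1, a quinone reductase, had log2 levels of 1.52, 1.99 and 2.09 in PVBL 1 to 3, against -0.64, -0.61 and -1.12 in sham 1 to 3. All PVBL arrays were far above the sham arrays, by 2.66 ± 0.21 (SE, adjusted p = 0.000231). Srxn1, which repairs oxidised peroxiredoxins, rose by 2.66 ± 0.24 (SE, adjusted p = 0.000445), and Gsta1, a glutathione transferase whose probe may meet near-identical family members, by 5.67 ± 0.36 (SE, adjusted p = 7.62e-05). These 3 were called under all 22 alternative settings. Psmb5 and Psmb6 were called under none of 21. Whether the windows of Nqo1, Srxn1 and Gsta1 hold the element was not looked up. A link between the element and these values was not tested.

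**Figure D5:**
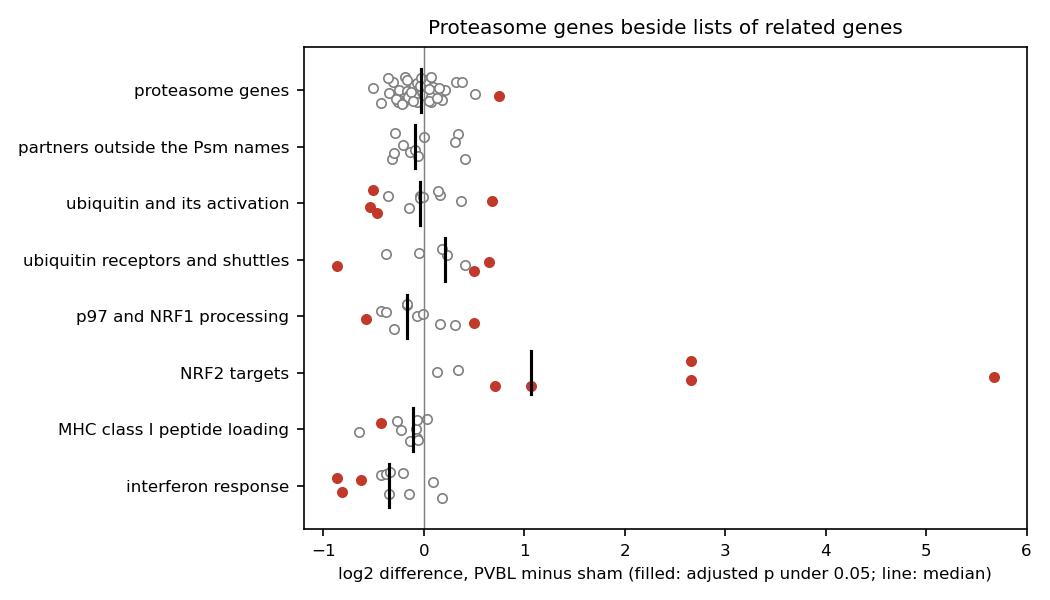
Log2 difference, PVBL minus sham (x), for the 45 proteasome genes and for 7 lists of related genes (rows), with 1 point per gene, filled in red where adjusted p was under 0.05, and a line at each median. The proteasome row runs from -0.50 to 0.75 with a median of -0.03, while the NRF2 targets reach 5.67.

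Of the 2 names set apart, Psmc3ip encodes HOP2, a protein of homologous recombination. Its log2 levels were -0.66, -0.15 and -1.12 in PVBL 1 to 3, against -3.53, -3.73 and -3.53 in sham 1 to 3. The groups were far apart, and the transcript was 7.74-fold higher in PVBL (2.95 ± 0.24, SE, adjusted p = 0.000265). With normexp background correction the log2 difference was 1.34. That setting adds an offset of 50 to every signal, which shrinks differences most where signals are dim. Psme3ip1 was at -0.05 ± 0.12 (SE, adjusted p = 0.775).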

How the data were processed

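Total RNA was labelled with Cy3, per the labels' protocols, and the 6 deposited scanner files hold intensity values per spot from Agilent Feature Extraction 10.7.3.1, per the file headers (the submitters' processing notes name version 9.1), on design 028005 annotated on mm9. Their processed signal column is background-corrected by the scanner software, per the file headers. The authors also deposited a table of log2 values for 7850 probes, whose normalization is not given in the sources used here. It correlated with the scanner values, once scaled and centred per probe, at r of 0.9997 or more, so direction and centring are known. Its column medians ran -0.18, -0.15, -0.22 (PVBL 1 to 3) and 0.17, 0.15, 0.18 (sham 1 to 3), and it served as an alternative only.

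Here log2 of the processed signal was taken, without spots marked as outliers (115 to 201 an array) or the 3671 control spots; repeated spots were averaged by probe, and the 75th percentile of an array was subtracted from its values. Probes were tested if well above background on all arrays of 1 group. Genes were named by RefSeq accession (gene table of GRCm38.p6, names only), and a gene was represented by its brightest probe. The test was limma 3.58.1 under R 4.3.3 (lmFit then eBayes, two-sided, Benjamini-Hochberg over 13587 genes), tested on simulated data first. Errors marked SE are moderated, from limma. The 22 alternatives, 3 of them added after the data were examined, covered background, scaling, filter, probe choice, outlier spots, weights, the replicate number, the value table and each array left out. Normexp was run on median spot signals, since the files hold no mean signals. The members and lists were chosen with earlier results of these data known. Genes described on every array were the catalytic subunits, the activators, and in each role group up to 3 called genes and the one nearest 0; of each list, up to 3 called genes or the 2 brightest. The text marks genes picked later, and 1 gene that the rule names is not reported here.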

Additional observations from a re-analysis of the deposited data

How the results depend on the processing

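Psmd8 kept its direction and its call under all 22 alternatives, 3 of which (the median of the proteasome genes as the scale, the median of the tested probes as the scale, and leaving out PVBL replicates 2 and 3 together) were chosen after seeing the data. Of the 45 proteasome genes, 3 were called with normexp background, quantile scaling, median scaling, the 75th percentile over probes above background on all arrays, and eBayes with trend. Of all genes, 31.3%, 33.1%, 30.9%, 33.6% and 33.8% were called under these settings, in this order. With array weights 5 proteasome genes were called (3 higher, 2 lower), against 45.1% of all genes. The count was 4 with the median of the proteasome genes as the scale (2 higher, 2 lower), against 34.2% of all genes. It was 2 with the median of the tested probes as the scale (Psmd8 higher, Psmb8 lower), against 37.3%. Only 3 of the genes are held in the authors' deposited table, of which 2 were called, beside 4409 of all 4524 genes in it. Leaving out each array in turn gave 1 to 3 called proteasome genes, medians from -0.15 to 0.04 and 2391 to 4785 genes called in all, the lowest without sham replicate 1 (2391) and sham replicate 2 (2840). With PVBL replicates 2 and 3 both left out it was 2344, with PVBL 1 assumed to vary like the sham arrays. Spike-in scaling gave 1849 genes called and a median over the proteasome genes of 0.40, against 0.33 over all genes. The split of calls was 2053 higher and 2422 lower, against 2639 and 1559 with median scaling, 1653 and 196 with spike-in scaling, and 1713 and 3358 with the median of the tested probes as the scale. No filter gave 3051 genes called.

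The replicate numbers, which are also the slide columns, showed no steady pairing of the samples. Correlations of deviations were 0.17, -0.06 and 0.19, and 1 of 3 numbers correlated best with its own. So few correlations cannot show that no pairing exists. With the replicate block, 1 proteasome gene (Psmd8) and 3803 genes were called.

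Values of the other sign, with the cause not tested, were log2 differences of genes mostly near 0. With normexp background, Psma6 was at 0.052, Psmb5 at 0.0080, Psmb6 at 0.072, Psme1 at 0.0065, Psme2 at 0.050 and Psme4 at 0.034. With quantile scaling, Psma6 was at 0.090, Psmb5 at 0.18, Psmb6 at 0.24, Psme1 at 0.11, Psme2 at 0.22, Sem1 at 0.032 and Pomp at 0.062. With median scaling, Psma6 was at 0.12, Psmb5 at 0.036, Psmb6 at 0.13, Psme1 at 0.069, Psme2 at 0.11 and Psme4 at 0.090. With spike-in scaling, Psma6 was at 0.41, Psmb10 at 0.17, Psmb5 at 0.33, Psmb6 at 0.42, Psmb8 at 0.15, Psmb9 at 0.22, Psme1 at 0.36, Psme2 at 0.40, Psme4 at 0.39, H2-K1 at 0.0004, Ptprc at 0.20, Itgam at 0.18, Sem1 at 0.22, Pomp at 0.29, Psmc6 at 0.073, Psmg3 at 0.0027 and Psma5 at 0.086. With the 75th percentile over probes above background on all arrays, Psma6 was at 0.018, Psmb6 at 0.026 and Psme2 at 0.0066. With the mean over probes, Pomp was at 0.086 and Ube2n at 0.0012, genes whose 2 probes differed in sign. With outlier spots kept, Psmb4 was at -0.0027. With array weights, Psmb4 was at -0.0098, Psmd10 at -0.0092, Psme4 at 0.0004 and S100a9 at -0.44. With the authors' deposited table, Pomp was at 0.30 (adjusted p = 0.0256), in a fit that called 97.5% of all genes in that table. With the median of the proteasome genes as the scale, Psmb4 was at -0.057, Psmb7 at -0.045, Psmd10 at -0.0055 and Psmd4 at -0.051. With the median of the tested probes as the scale, Psmb4 was at -0.095, Psmb7 at -0.083, Psmc5 at -0.029, Psmd10 at -0.043 and Psmd4 at -0.089. Without PVBL replicates 2 and 3, Psmb4 was at -0.071, Psmd10 at -0.12, Psmd4 at -0.016, Psme4 at 0.043, S100a9 at -0.63 and Psmb8 to Psmb5 at 0.051. Over the arrays left out in turn, values spanned 0 for Psma6 (-0.13 to 0.075), Psmb4 (-0.16 to 0.13), Psmb5 (-0.21 to 0.036), Psmb6 (-0.15 to 0.094), Psmb7 (-0.091 to 0.17), Psmc5 (-0.10 to 0.27), Psmd10 (-0.051 to 0.14), Psmd4 (-0.11 to 0.12), Psme1 (-0.15 to 0.011), Psme2 (-0.12 to 0.033), Ptprc (-0.59 to 0.011), S100a9 (-0.21 to 0.95). Of the other values for single genes, 882 kept direction and side of the threshold, 104 lost a call and 25 gained one. Dim probes limit the lymphocyte markers most, since Cd8a was not above background in PVBL.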
